A study of Mus musculus with 27 samples.

Results

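The neuregulin and ErbB signalling genes comprise 3 ligand genes (*Nrg1*, *Nrg2* and *Hbegf*) and 4 receptor genes (*Egfr*, *Erbb2*, *Erbb3* and *Erbb4*). The regions described here are those with H3K4 methylation that lie in the body of any of these 7 genes or within 5 kb of an annotated transcription start site (TSS) of one, in GENCODE vM1 on the NCBIM37 (mm9) assembly. By this rule, 274 of the 358833 regions in the study's merged list belonged to the 7 genes. Of the 274, 4 were in the list of regions with lower H3K4me1 in mutant hearts, at *Nrg2*, *Erbb2* and *Egfr*. Another 4 were in the list with lower H3K4me2, at *Erbb3* and *Erbb4*. No gene had a region in each list, and *Nrg1* and *Hbegf* had none in either.

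The study used chromatin immunoprecipitation and sequencing (ChIP-Seq) of H3K4me1, H3K4me2 and H3K4me3 in C57BL/6 mouse hearts at embryonic day E11.5, with input DNA, in 27 libraries of which 3 were of another assay (KMT2D ChIP-Exo in cultured cardiomyocytes, not analysed here). Every embryo carried the *Tnnt2::Cre* transgene, which drives Cre recombinase from a promoter active in heart muscle cells, and 1 copy of the mTmG Cre reporter. Controls were *Kmt2d* fl/+ and thus heterozygous for the deletion in those cells, whereas mutants were *Kmt2d* fl/fl. Each genotype gave 3 pools of 30 whole hearts, so endocardial, epicardial, cushion and blood cells, in which this Cre is not expected to act, were in every pool. The lists hold the authors' calls and no value per pool, so neither the deletion nor the variation among pools could be examined, and every call is given as the authors made it. The merged list pools the 3 marks, so which mark made a region is not known, and changes in H3K4me3 were not analysed here. A smaller number of marked cells and less mark per cell cannot be told apart in such pools.

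KMT2D is a methyltransferase for lysine 4 of histone H3. H3K4me1 is found mainly at enhancers, H3K4me2 at enhancers and promoters, and H3K4me3 at active promoters. Neuregulins and HB-EGF are growth factors with an EGF-like domain that bind ErbB receptor tyrosine kinases on neighbouring cells, and the receptors signal as dimers through RAS-ERK and PI3K-AKT. In the embryonic heart, NRG1 made by the endocardium acts on ERBB2 and ERBB4 in the myocardium and is required for trabeculation. ERBB3 serves with ERBB2 in the mesenchyme of the endocardial cushions, and HB-EGF and EGFR act in valve remodelling. ERBB2 has no known ligand of its own and ERBB3 has little kinase activity, so each works as a partner of another receptor.

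The 8 regions in a decreased list are the places at these genes where the study called a decrease. For each receptor gene, 200 bases of the middle 1000 bp of 1 such region are given from NCBIM37, plus strand, 5′ to 3′. Capitals mark matches, on either strand, to any of 5 short motifs: the SP/KLF box GGGCGG, the hypoxia core ACGTG, the E-box CACGTG (which holds the hypoxia core), the TEAD core GGAATG and the GATA core AGATAA. The stretch shown is the one with the most matches outside annotated exons.
Egfr chr11:16765335-16765534: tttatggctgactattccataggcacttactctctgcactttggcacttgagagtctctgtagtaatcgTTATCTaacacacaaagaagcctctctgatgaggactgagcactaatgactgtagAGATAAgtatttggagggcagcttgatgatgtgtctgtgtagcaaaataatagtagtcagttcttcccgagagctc
Erbb2 chr11:98280449-98280648: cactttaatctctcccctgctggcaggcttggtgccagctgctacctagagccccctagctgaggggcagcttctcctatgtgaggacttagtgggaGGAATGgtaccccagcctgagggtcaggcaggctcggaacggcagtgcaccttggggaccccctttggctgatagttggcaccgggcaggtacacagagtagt
Erbb3 chr10:128025975-128026174: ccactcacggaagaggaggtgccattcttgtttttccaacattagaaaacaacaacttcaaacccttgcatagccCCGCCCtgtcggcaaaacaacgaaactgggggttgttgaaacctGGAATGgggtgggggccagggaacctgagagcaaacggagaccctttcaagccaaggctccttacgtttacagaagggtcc
Erbb4 chr1:69071277-69071476: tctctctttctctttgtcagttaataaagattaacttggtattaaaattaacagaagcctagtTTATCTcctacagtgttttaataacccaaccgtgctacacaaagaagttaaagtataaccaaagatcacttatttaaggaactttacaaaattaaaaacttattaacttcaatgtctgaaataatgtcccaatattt
The first 2 stretches come from regions called lower for H3K4me1 and the last 2 from regions called lower for H3K4me2. The calls are for whole regions, and there is no value for the stretches themselves. The *Erbb3* stretch lies in intron 1, inside the region that also holds the TSS, and the others lie in introns 4, 1 and 1. Over the middle 1000 bp of all 8 called regions, 4 held the GATA core, 5 the TEAD core, 2 the SP/KLF box, 1 the hypoxia core and 0 the E-box. Among the 83067 merged regions of at least 1000 bp, the same window held these motifs in 48.2%, 46.7%, 24.3%, 43.6% and 14.7% of regions, respectively. The SP/KLF box was present only at *Erbb3* among the 8, in both of its called regions. These matches are a description of the letters and not of bound factors.

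Most regions at the 7 genes were narrow. The median width was 320 bp (quartiles 120 and 1040 bp), and the whole merged list also had a median of 320 bp. Of the 274 regions, 71 were at least 1000 bp wide and 50 were narrower than 100 bp (18.2%, against 20.9% of the whole list). By position, 240 regions were intronic, 21 overlapped an exon without holding a TSS, 9 held a TSS and 4 lay upstream of a gene. All 8 called regions were among the 71 wide ones and none of the other 203 was called, where 0.371% (H3K4me1) and 0.587% (H3K4me2) of all regions under 1000 bp were. The plot of region widths by gene shows this, with every called region above 1000 bp.

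**Figure D1:**
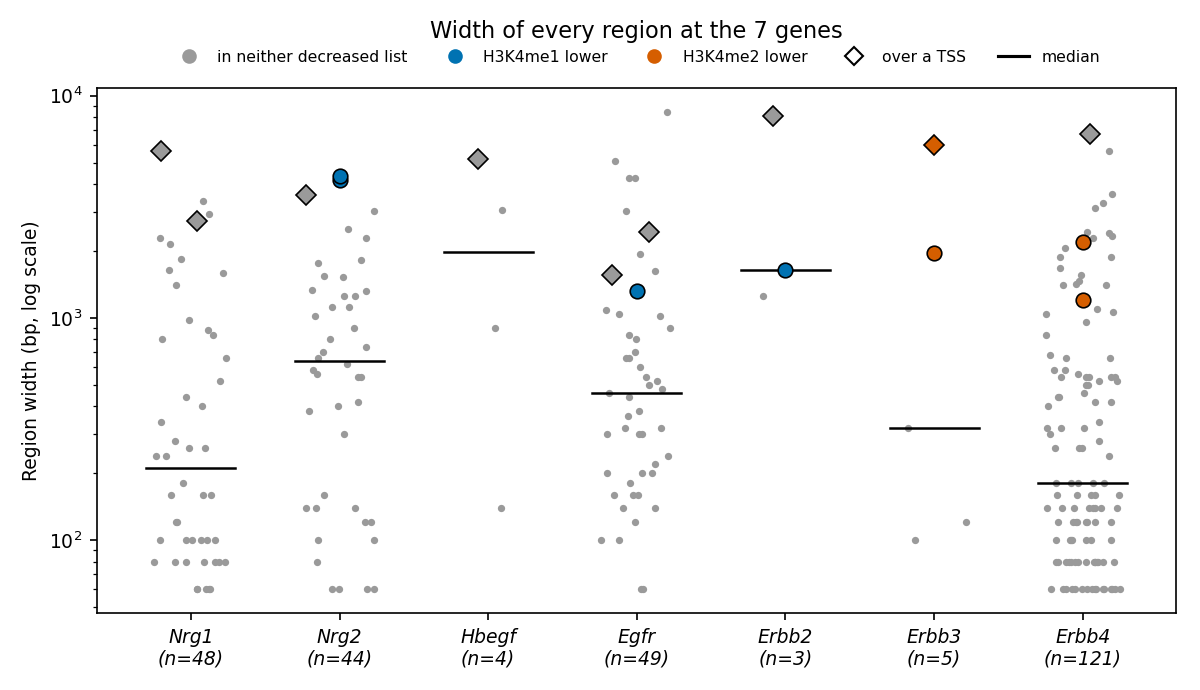
Width in bp, on a log scale, of each of the 274 regions by gene. Grey points are in neither decreased list, blue points have lower H3K4me1 and orange points lower H3K4me2 in mutant hearts. Diamonds hold an annotated TSS, and horizontal lines are medians, which run from 180 bp at *Erbb4* to 1980 bp at *Hbegf*. The called regions are 1200 to 6020 bp wide.

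The counts of called regions were read against the whole list. For H3K4me1, 4 of 274 regions (1.46%) were called, where 0.761% of all merged regions were. For H3K4me2, 4 of 274 (1.46%) were called, where 1.87% of all merged regions were. Since a larger share of wide than of narrow regions was called in the whole list, the wide regions were also taken alone. Of the 71 regions of at least 1000 bp, 5.63% were called for H3K4me1 and 5.63% for H3K4me2, where the values over all such regions were 2.06% and 6.12%. Among the 50 intronic regions of 1000 to 5000 bp, 3 were called for H3K4me1 (background 2.19%) and 2 for H3K4me2 (background 0.882%). The 50 are free of exons of their own gene, whereas the background was limited to regions free of exons of any annotated gene. With 4 calls a mark these shares rest on single regions, and no test of them was made.

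Among the ligand genes, *Nrg1* (ENSMUSG00000062991.5, chromosome 8, 32928500 to 33119581, minus strand) had 48 regions, none of them called. They covered 17.1% of the 191 kb gene body. The region over its main TSS was 5660 bp wide (33116386 to 33122045) and also held the TSS of the long non-coding RNA gene *Gm17443*. A second TSS, of a shorter coding transcript, lay in a region of 2740 bp (33027946 to 33030685), and the remaining TSS lay 141 bp from the nearest region. Intron 5, of 97.5 kb, held 29 of the 48 regions, the widest of 3360 bp. The annotation used here holds only part of the locus: RefSeq's *Nrg1* model on a later assembly is 1084 kb long. Between the annotated *Nrg1* and the next coding gene upstream, *Gm5908*, lay 468 kb with a further 66 merged regions. Of these, 9 were at least 1000 bp wide, and the called ones were a region of 80 bp for H3K4me1 (33166126 to 33166205, 46.5 kb from the gene) and one of 80 bp for H3K4me2 (33529026 to 33529105, 409 kb from the gene). No wide region was therefore called at *Nrg1* or in that interval. The annotated gene and the interval together are shorter than the RefSeq model, so part of the locus was not described. Beyond the interval, a further region of 80 bp with lower H3K4me1 lay 508 kb upstream of the annotated gene (33627886 to 33627965). The absence of a call at *Nrg1* holds for the annotated part alone.

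*Nrg2*, which encodes a second neuregulin (ENSMUSG00000060275.4, chromosome 18, 36177333 to 36357034, minus strand), had 44 regions covering 24.3% of its 180 kb body. All 3 of its TSS positions lay in 1 region of 3560 bp (36354226 to 36357785), which was in neither list. It had 2 regions with lower H3K4me1, and both were wider than the region over the TSS. One, of 4340 bp (36331886 to 36336225), lay in intron 1, 20809 to 25148 bp downstream of the main TSS. The other, of 4180 bp (36204186 to 36208365), held exon 3, 148669 to 152848 bp downstream. These were the widest regions at the gene. Intron 1, of 143 kb, held 34 regions, 12 of them at least 1000 bp wide, and only 1 of the 12 was called. The nearest region with lower H3K4me2 was 60 bp wide and lay 23.1 kb beyond the gene's end, in *Psd2*.

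*Hbegf*, the gene of heparin-binding EGF-like growth factor (ENSMUSG00000024486.5, chromosome 18, 36664583 to 36675459, minus strand), is the shortest of the 7 at 10.9 kb and was the most fully covered, at 61%. Its 4 regions were 5200 bp over the TSS and exons 1 to 3 (36671886 to 36677085), 3060 bp over exon 4 (36666426 to 36669485), and 900 and 140 bp upstream. None was called. The 140 bp region lay 4367 bp from the TSS, just inside the 5 kb limit. Just outside it, at 5.63 kb, lay a region of 1020 bp with lower H3K4me2 (36681086 to 36682105), which lay in no annotated gene. A region with lower H3K4me1 (36689526 to 36690925, 1400 bp) lay 14.1 kb upstream in *Slc4a9*. The absence of a call at *Hbegf* thus holds for the window and not for its surroundings.

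**Figure D2:**
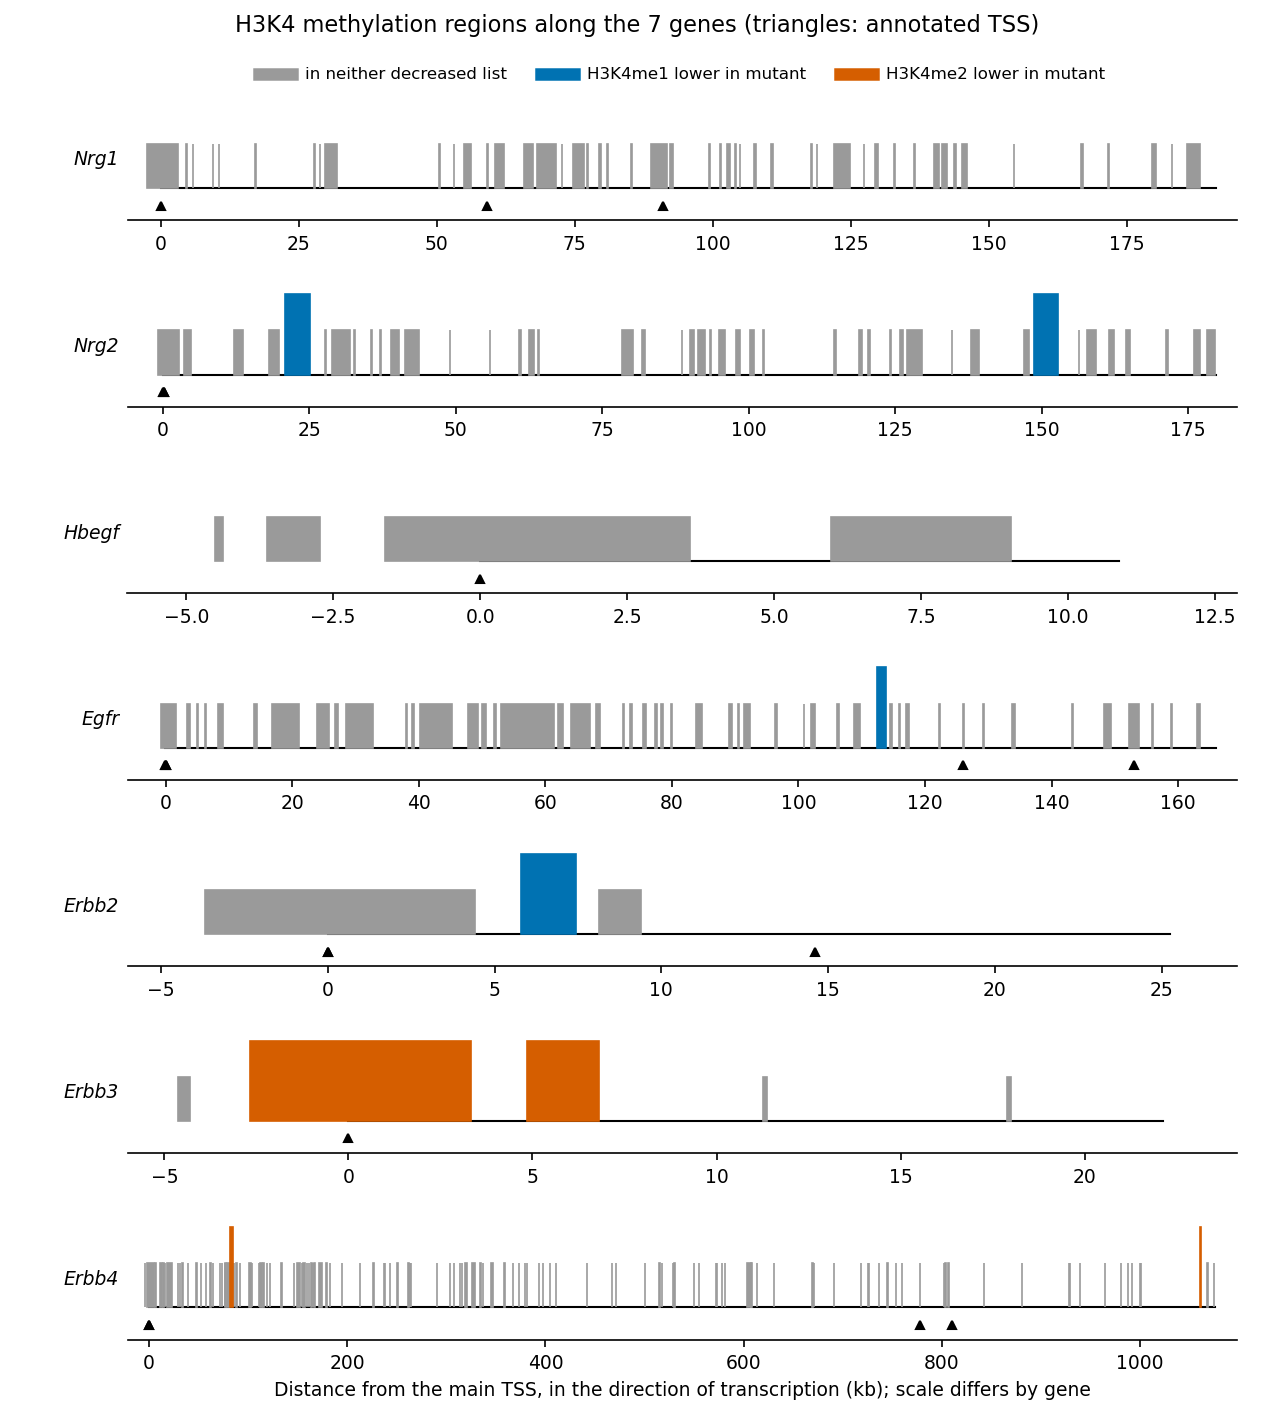
Position of every region along each gene, as distance in kb from the main TSS in the direction of transcription, with a scale of its own for each gene. The black line is the gene body, triangles are annotated TSS positions, short grey bars are regions in neither list, and tall bars are regions with lower H3K4me1 (blue) or H3K4me2 (orange). Widths are to scale except that the narrowest regions are drawn at a minimum line width. At *Erbb3* alone does a tall bar cover a TSS.

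Among the receptor genes, *Egfr*, which encodes the EGF and HB-EGF receptor (ENSMUSG00000020122.9, chromosome 11, 16652206 to 16818161, plus strand), had 49 regions and the highest density of the 7 genes, at 29.5 regions per 100 kb of body. Its main TSS region was the narrowest of the 7, at 2440 bp (16651466 to 16653905). Wider regions lay in intron 1, of 106 kb, which held 33 regions and was covered to 38.6% with the end of the TSS region included. The widest of them, of 8440 bp (16705146 to 16713585), exceeded every other region at the 7 genes. None of the 8 wide regions inside intron 1 was called. The only called region had lower H3K4me1, was 1320 bp wide (16764686 to 16766005) and lay in intron 4, 112472 to 113791 bp downstream of the main TSS and 12148 bp from the TSS of a short coding transcript. Outside the gene, the nearest region with lower H3K4me1 lay 2878 kb away, so this call stood by itself.

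*Erbb2* (ENSMUSG00000062312.5, chromosome 11, 98273784 to 98299030, plus strand) had 3 regions, all in the 5′ part of the 25.2 kb gene. The TSS region was the widest of the main TSS regions at 8100 bp (98270106 to 98278205) and was in neither list. The next region, 1380 bp further on in intron 1, had lower H3K4me1 and was 1640 bp wide (98279586 to 98281225, 5802 to 7441 bp downstream of the TSS). It was followed after 680 bp by a region of 1260 bp (98281906 to 98283165) that was not called. The rest of the gene, a stretch of 15.9 kb to its end, held no region. A wide region with lower H3K4me1, of 15040 bp, lay 31.6 kb upstream over *Stard3*, and the nearest region with lower H3K4me2 lay 66 kb upstream.

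*Erbb3* (ENSMUSG00000018166.8, chromosome 10, 128004579 to 128026708, minus strand) was the only one of the 7 genes with lower H3K4me2 over a TSS. The called region was 6020 bp wide (128023366 to 128029385) and reached from 2677 bp upstream of the TSS to 3342 bp downstream, with exon 1 inside. After a gap of 1500 bp, a region of 1960 bp over exons 4 to 7 (128019906 to 128021865) was also called for H3K4me2. The other 3 regions, of 320, 120 and 100 bp, were not, so both regions of at least 1000 bp at *Erbb3* were called. No region at the gene had lower H3K4me1. A further region with lower H3K4me2, of 4760 bp (127999786 to 128004545), ended 34 bp short of the 3′ end of *Erbb3* and held the TSS of *Pa2g4*, whose product is known as ErbB3-binding protein 1. It belongs to that neighbouring gene by the rule used here and is not among the 274.

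*Erbb4* (ENSMUSG00000062209.8, chromosome 1, 68078760 to 69154633, minus strand), the receptor for neuregulins in heart muscle, was the longest of the 7 at 1076 kb and had 121 regions, 31 of them under 100 bp. They covered 6.98% of the body. Intron 1, of 367 kb, held 65 of the 121 regions and 20 of the 24 that were at least 1000 bp wide. The region over the main TSS was 6740 bp wide (69149606 to 69156345), also held a TSS of the non-coding gene *Gm16076*, and was in neither list. One region with lower H3K4me2, of 2200 bp (69070106 to 69072305), lay in intron 1, 82328 to 84527 bp downstream of the TSS. Its neighbours were 1120 and 720 bp away and were not called. The other, of 1200 bp (68093246 to 68094445), was the only region inside intron 25, 1060188 to 1061387 bp downstream, beside the longest stretch of the gene without any region (59.1 kb). No region with lower H3K4me1 lay within 342 kb of the gene.

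The regions over the main TSS were then compared between the genes. Their widths were 5660 bp at *Nrg1*, 3560 bp at *Nrg2*, 5200 bp at *Hbegf*, 2440 bp at *Egfr*, 8100 bp at *Erbb2*, 6020 bp at *Erbb3* and 6740 bp at *Erbb4*. All but *Egfr* were above the median of 3220 bp over the 17752 regions that hold the TSS of a coding gene. The called one, at *Erbb3*, was narrower than those of *Erbb2* and *Erbb4*, which were not called. Of all coding genes with a TSS in a region, 29.2% had lower H3K4me2 over a TSS and 1.29% had lower H3K4me1, compared with 1 and 0 of the 7 genes. Counted by region, 22.5% of regions over a coding TSS were called for H3K4me2 and 1.18% for H3K4me1, compared with 1 and 0 of the 9 regions over a TSS here. In the class of 5000 to 8500 bp, which held 5 of the main TSS regions, 1 was called for H3K4me2 (background 33.1%) and 0 for H3K4me1 (background 1.58%). In the class of 2000 to 5000 bp, which held those of *Nrg2* and *Egfr*, 0 were called, where the backgrounds were 25.2% and 0.875%. Of the 20 annotated TSS positions of the 7 genes, 15 lay inside a region. The 5 outside were secondary starts at *Nrg1*, *Erbb2*, *Erbb4* (2) and *Egfr*, at 73 to 5229 bp from the nearest region.

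**Figure D3:**
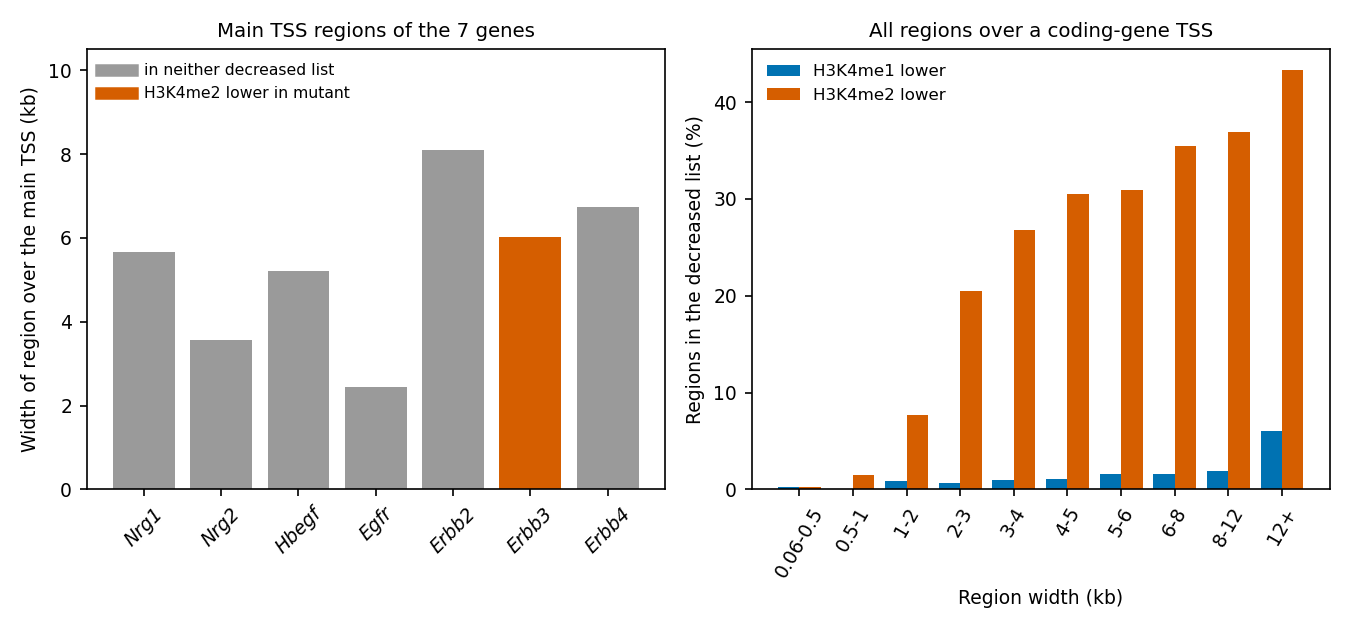
Left, width in kb of the region over the main TSS of each gene, orange where H3K4me2 was called lower and grey where neither mark was. Right, the percentage of all regions over a coding-gene TSS in each decreased list, by width class in kb. The share called for H3K4me2 climbs from 0.272% below 500 bp to 43.3% at 12 kb or more, and the *Erbb3* region falls in the class of 6 to 8 kb, where it is 35.5%.

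Counted by gene, 3 of the 7 had lower H3K4me1 somewhere in the body or near a TSS, compared with 7.08% of the 20025 coding genes with a region. For H3K4me2 it was 2 of 7, compared with 28.7%. Long genes hold more regions and so more chances of a call. Coding genes with 40 to 50 regions, as at *Nrg1*, *Nrg2* and *Egfr*, had lower H3K4me1 in 31% and lower H3K4me2 in 44.2% of cases. For those with 1 to 5 regions, as at *Erbb2*, *Erbb3* and *Hbegf*, these values were 1.91% and 21.3%. For those with 100 or more, as at *Erbb4*, they were 52.6% and 70.1%. Regions of both lists at 1 gene were found in 2.86% of coding genes and in 0 of the 7.

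In density of regions, *Egfr* lay above and *Erbb2* below the quartiles of coding genes of like length, and the other 5 lay within them. *Nrg1*, *Nrg2* and *Egfr* had 25.1, 24.5 and 29.5 regions per 100 kb, where coding genes of 100 to 250 kb had a median of 21.1 (quartiles 14.6 and 25.7). *Erbb3* and *Hbegf* had 18.1 and 18.4 and *Erbb2* 11.9, against a median of 20.8 (13.9 and 27.6) in genes of 10 to 50 kb. *Erbb4* had 11.2, against a median of 13.6 (8.23 and 20.5) in genes of 500 kb or more. In covered share, *Hbegf* lay above the upper quartile of its length class (33.2%), and the other 6 lay within the quartiles of theirs.

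The called regions differed from one another in GC content. It was 36% and 40.2% in the called regions of *Erbb4*, 43.7% in that of *Egfr*, 47.7% and 53.5% in those of *Nrg2*, 52.4% and 53.6% in those of *Erbb3* and 57.2% in that of *Erbb2*. The median was 43.2% over the 71 wide regions at these genes and 46.7% over all wide merged regions. Those of *Erbb2* and *Erbb3* and the exon 3 region of *Nrg2* lay above the upper quartile of all wide regions (50.2%), and those of *Erbb4* lay below the lower quartile (43.6%). In the 250 bases before the main TSS, GC content ran from 54% at *Erbb4* to 70.8% at *Hbegf*. The SP/KLF box was present there in 4 of the 7 genes (*Nrg2*, *Hbegf*, *Egfr* and *Erbb3*), and in 41% of all coding promoters. The TEAD core and the GATA core were present at *Erbb2* alone, and in 11.3% and 9.18% of all coding promoters. The hypoxia core and the E-box were present in 0 of the 7, and in 17.5% and 6.63% of all coding promoters.

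The remainder of the pathway was followed in 52 genes grouped by role, with 824 regions. Lower H3K4me2 was called at 27 of the 52 (51.9%, against 28.7% of coding genes with a region), and in 26 of these genes a called region held a TSS. Of coding genes with a TSS in a region, 29.2% had lower H3K4me2 and 1.29% lower H3K4me1 over a TSS. Lower H3K4me1 was called at 6 of the 52 (against 7.08% of coding genes), and at 1 of them, *Akt2*, over a TSS. Both were called at *Map2k1*, *Akt1* and *Akt2*, in separate regions of each gene. These genes were not tested as a set. The calls were unevenly placed over the roles, as the plot of genes by role shows.

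Of the 8 other ligand genes, 1 had lower H3K4me2 (*Egf*, 2820 bp over a TSS) and 1 had lower H3K4me1 (*Nrg3*, 160 bp in an intron), which is 12.5% for each mark against 28.7% and 7.08% of coding genes. *Tgfa*, *Areg*, *Ereg*, *Btc*, *Epgn* and *Nrg4* had none. Of the 5 proteases that shed ligands, *Adam10* (6580 bp) and *Adam17* (3240 bp), the main sheddases of the family, had lower H3K4me2 over a TSS. *Adam19*, with the widest TSS region of the 5 at 13300 bp, had none, nor did *Adam12* or *Bace1*.

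The adaptors and exchange factors had calls at 9 of 10 genes, each over a TSS and all for H3K4me2, with a further 1620 bp region at *Crkl*. For this group and the RAS-ERK cascade, the share over all coding genes with a TSS in a region was 29.2%. By width, the called share of coding TSS regions ran from 26.8% at 3 to 4 kb to 43.3% at 12 kb or more. Neither group was tested against these shares. The widest were at *Ptpn11* (15180 bp), which encodes the phosphatase SHP2, and *Shc1* (11540 bp). The others were *Grb2* (6120 bp), *Crkl* (6020 bp), *Sos1* (5920 bp), *Sos2* (5600 bp), *Gab1* (5260 bp), *Crk* (5040 bp) and *Nck1* (3820 bp). The exception was *Grb7*, whose TSS region was 2320 bp wide. In the RAS-ERK cascade, 4 of 9 genes had lower H3K4me2 over a TSS, among them *Map2k1* (4180 bp) and *Nras* (3080 bp). *Braf*, *Map2k2*, *Mapk3* and *Hras* had no call for either mark, although the region over the TSS of *Hras* was 9100 bp wide.

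In the PI3K-AKT branch, 5 of 8 genes had lower H3K4me2 over a TSS, among them *Akt1* (17300 bp) and *Akt2* (8300 bp), which encode the AKT kinases, and *Pik3cb* (6140 bp), which encodes a catalytic PI3K subunit. *Pik3ca*, for another catalytic subunit, and *Pik3r1* and *Pik3r2*, for regulatory subunits, had no call. Of 12 inhibitors, 5 had lower H3K4me2 over a TSS: *Errfi1* (9240 bp), which encodes a direct inhibitor of EGFR and ERBB2 kinase, *Rnf41* (7500 bp), whose product is a ubiquitin ligase for ERBB3, *Spred1* (7480 bp), *Spred2* (4920 bp) and *Cbl* (3840 bp). *Lrig1* had a call of 120 bp in an intron. The ERK feedback genes *Spry1*, *Spry2*, *Spry4* and *Dusp6* had none, with TSS regions of 5140 to 11680 bp. For the PI3K-AKT branch and the inhibitors too, the share over all coding genes with a TSS in a region was 29.2%, and neither group was tested.

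**Figure D4:**
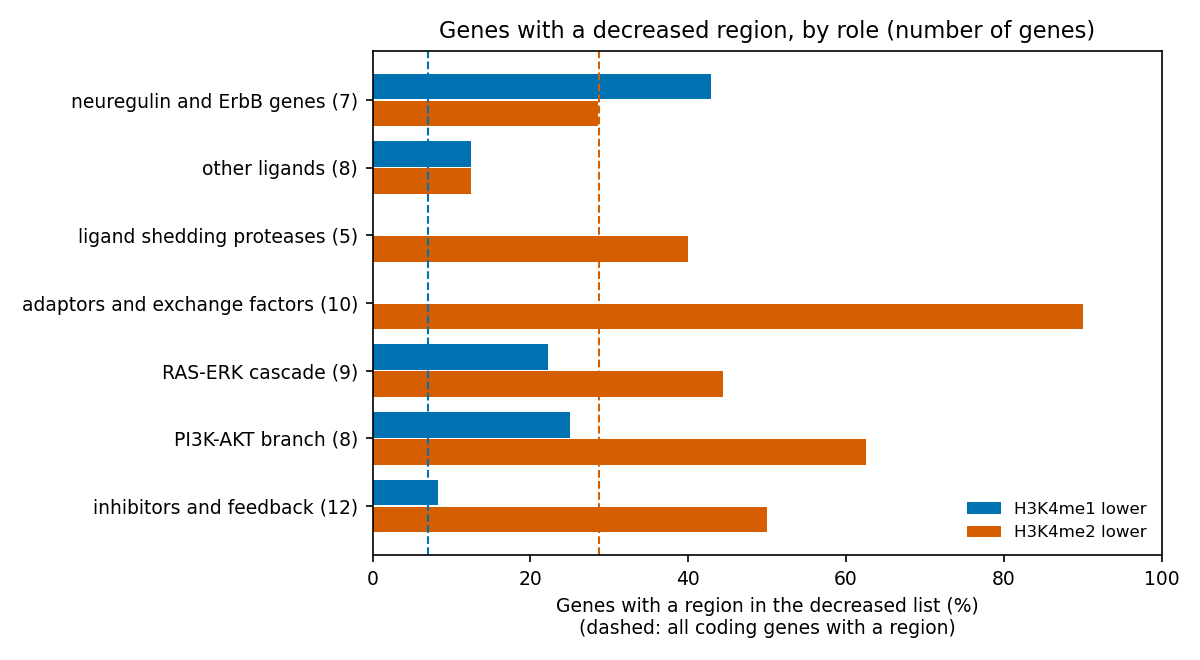
Percentage of genes with at least 1 region in each decreased list, by role, with the number of genes in parentheses. Dashed lines are the values over all coding genes with a region, 7.08% for H3K4me1 (blue) and 28.7% for H3K4me2 (orange). The adaptors and exchange factors stand at 90% for H3K4me2 and 0 for H3K4me1. The 7 neuregulin and ErbB genes have 3 genes called for H3K4me1 and 2 for H3K4me2.

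The tissue was checked by the TSS regions of marker genes. All 7 heart muscle markers had a region over the TSS, from 5840 bp at *Ttn* to 48800 bp at *Gata4*, as did all 4 endocardial or endothelial, 3 epicardial, 3 cushion mesenchyme and 3 blood markers. Markers of tissues outside the heart did not all lack one. The nerve or glia markers *Elavl4* (2640 bp) and *Sox10* (2300 bp) and the liver marker *Ttr* (2480 bp) had a region over the TSS, whereas the liver markers *Alb* and *Apoa2* had none. Lower H3K4me2 was called at 2 of 7 heart muscle, 0 of 4 endothelial, 0 of 3 epicardial, 1 of 3 mesenchyme and 2 of 3 blood markers. It was also called at 0 of 3 nerve or glia and 1 of 3 liver markers. Lower H3K4me1 was called at 2 of 7 heart muscle and 1 of 4 endothelial markers, and at no other marker. Over all coding genes with a region, the shares were 28.7% for H3K4me2 and 7.08% for H3K4me1. These small counts were not tested. A region over a TSS does not show that a gene is expressed, and which cells gave the signal at the 7 genes was not tested.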

How the data were processed

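ChIP-Seq libraries of E11.5 control and mutant hearts (3 pools per genotype and mark) were aligned to mm9 by the authors. Per the labels, the processing notes name CASAVA 1.8.2, FastQC, Bowtie, Bowtie2 and SAMtools. The authors merged peaks over replicates and marks, and called regions lower in mutants at a false discovery rate (FDR) under 0.1. Their deposited lists hold positions only. The H3K4me2 list, of 6699 regions, was used as deposited and is longer than the number of such regions in the study's text. The study places its ChIP-Seq pipeline in a supplement that was not used here, so the peak caller and test are not given in the sources used here, read depth is unknown, and which mark gave a region is not recorded.

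Regions were made 1-based and assigned with Python 3.11.15 (pandas 2.3.3) to a gene where they overlapped its body, or 5 kb around any TSS, by at least 1 bp. Every called region matched a merged region exactly. The main transcript was the longest coding one. *Hras* was matched as *Hras1*. The assignment of regions to genes was tested on simulated data.

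Named were all 7 genes, with their called, TSS and widest regions and the nearest called ones outside, and up to 20 pathway genes called over a TSS. Other pathway genes in the text were chosen after their values were seen. Genes and lists were chosen with earlier results of these data known. No test was made, since the lists hold no replicate values. KMT2D ChIP-Exo was not analysed here, and some genes of the lists are not reported here by name.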

Additional observations from a re-analysis of the deposited data

How the results depend on the processing

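The 8 results were recomputed under 37 alternatives, of which 31 changed a count by no more than 1.5 times or left a share within its interval. The 4 regions with lower H3K4me1, the 4 with lower H3K4me2 and the single gene with lower H3K4me2 over a TSS were the same in number under each alternative run, except that with 10 kb around each TSS the H3K4me2 count was 5, through the region upstream of *Hbegf*. The number of regions at the 7 genes fell from 274 to 159 at widths of at least 200 bp and to 115 at 500 bp or more. The share of TSS positions inside a region was 75% (95% Wilson interval 53.1% to 88.8%) and 90% when a region within 1 kb counted. The interval treats the 20 positions as independent, whereas the 15 inside lay in only 9 regions. It served as a limit for naming a change and does not measure a spread among independent starts. The covered share of the bodies was 13.2%, was 11.6% for regions of at least 500 bp, and was 13.8% with 5 kb around each TSS added. Both alternatives were counted as changes of the covered share. No interval for that share is given here, so these labels do not measure a spread. Pathway genes with lower H3K4me1 went from 6 to 1 when the region had to hold a TSS and to 4 at widths of at least 500 bp. No paired analysis was possible because the lists hold no values per replicate, and for the same reason no replicate could be left out. Stricter calls could not be tried, since the lists carry no scores.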
